A study of Homo sapiens with 6 samples.

Results

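The homologous recombination and Fanconi genes are a list of 44 genes for the repair of DNA double-strand breaks and interstrand crosslinks, chosen by name from the 35716 genes of the count table. All 44 were found, and all 44 were among the 15202 genes that passed the filter on low counts. RNA was measured by poly(A)-selected sequencing in Miapaca-2 (MIA PaCa-2) cells, an established human line from a pancreatic ductal adenocarcinoma, labelled as wild type. In 3 libraries the cells had been kept with 10 nM triptolide for 24 h, and in 3 libraries they were untreated cells in DMEM with FBS for the same time. Triptolide is a plant diterpenoid whose known target is XPB, a helicase of the transcription factor TFIIH. Since the series' design text uses the word control for the treated cells, libraries were grouped by the treatment label of each sample. The line is a single tumour line, and nothing in the labels says that replicates were separate cultures. The p-values therefore cover only the spread seen between these libraries, and that spread may be technical.

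Homologous recombination copies the lost sequence from an intact DNA molecule. The MRN complex binds the broken ends and recruits the kinase ATM, CtIP helps to trim the ends, and BRCA1, PALB2 and BRCA2 act on the exposed strand to start the search for the intact copy. The Fanconi core complex attaches ubiquitin to FANCD2 and FANCI at a crosslink, which calls in nucleases, and the gap is then finished by recombination. Many of these genes are transcribed most in the S and G2 phases of the cell cycle, and cells that lack this repair are known to be sensitive to platinum drugs and PARP inhibitors, also in pancreatic cancer.

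Total counts ranged from 16302961 to 23262713 in the triptolide libraries and from 17566458 to 19600354 in the untreated libraries. No pair of libraries of a group differed by as little as sampling noise. Many markers of other cell types differed between the groups. The marker lists were chosen with earlier results of these data known, so their counts only describe the libraries. Over all genes tested, 10.0% rose and 5.82% fell. Of 20 placental trophoblast markers, 16 were tested and all 16 rose, with a summed level of 581 to 947 CPM (counts scaled to a library of fixed size) in triptolide libraries, against 15.5 to 17.9 CPM in untreated libraries. GCM1, ERVFRD-1, LGALS13, HSD3B1 and INSL4 had 0 counts in the untreated libraries. CGA, PSG1, PSG3, CYP19A1, KISS1, PAPPA2, ERVW-1, HSD3B1, PLAC4 and SVEP1 had at most 8 counts in any untreated library. They passed the low-count filter only through the triptolide libraries. The direction of such genes was fixed in advance. Of 15 fibroblast markers, 8 of 12 tested fell and 0 rose. Their sums were 347 to 443 CPM in triptolide libraries and 627 to 779 CPM in untreated libraries. Most of the sum with triptolide was COL1A2, which was level. It had 376, 269 and 342 CPM with triptolide, against 345, 336 and 288 CPM without it (adjusted p = 0.936). DCN was not called either. FAP and CDH2 had 0 counts with triptolide, and POSTN had at most 2 in any triptolide library. CDH2 and POSTN passed the low-count filter only through the untreated libraries, so their direction was fixed in advance. Of 12 blood and endothelial markers, 5 of 7 tested rose (HBA1, HBA2, HBB, CSF1R and VWF) and 1 fell. HBA1, HBA2, CSF1R and VWF had at most 5 counts in any untreated library. They passed the low-count filter only through the triptolide libraries, so their direction was fixed in advance. The sums of the 12 markers were 29.6 to 45.2 CPM in triptolide libraries and 24.0 to 29.1 CPM in untreated libraries, where HBG1, HBG2 and CD68 had 0 counts. The 1 that fell was CDH5, the most abundant of the 12, at 15.9 ± 2.15 CPM with triptolide and 23.6 ± 2.54 CPM without it. Of 7 genes listed as keratins and epithelial markers for the carcinoma cells, with VIM among them, 2 of 5 tested fell and 0 rose. Their sums were 3242 to 3951 CPM in triptolide libraries and 4383 to 6527 CPM in untreated libraries. The keratin gene KRT18 fell to 503 ± 57.0 CPM with triptolide, against 870 ± 168 CPM without it (adjusted p = 0.0123), and VIM fell to 1358 ± 335 CPM, against 2260 ± 537 CPM (adjusted p = 0.042). KRT19 was lower in every triptolide library and did not pass (adjusted p = 0.0691). KRT8 stood between 1378 and 1873 CPM with triptolide and between 1616 and 2274 CPM without it, while EPCAM and CDH1 stayed at or below 0.28 CPM in every library. The part of these markers in the results on the repair genes was not tested. In bulk RNA, fewer cells of a type and less RNA per cell cannot be told apart.

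With triptolide, 3 of the 44 genes fell, 0 rose and 41 did not pass the test. The 3 were FANCE of the Fanconi core complex, the checkpoint kinase gene CHEK2 and NBN of the MRN complex. By the fitted fold change they were 2.04-fold, 1.93-fold and 2.19-fold lower with triptolide. A gene was called at an adjusted p under 0.05 in edgeR's quasi-likelihood test, adjusted over all genes tested. Over all genes tested, 5.82% fell and 10.0% rose by the same rule, so the 6.82% of these genes that fell is near the background. At an unadjusted p under 0.05, 1 of the 44 was higher and 5 were lower, where 17.1% of all genes tested were higher and 13.8% lower. The calls by DESeq2 were 0 risen and 3 fallen, and those by limma-voom had the same numbers. The groups did not overlap, lower with triptolide, in 6 of the 44 genes, where 16.9% of all genes tested did so, and higher in 2 genes, where 19.8% did so. The median log2 fold change was -0.09 over the 44 genes and -0.004 over all genes tested. A fitted fold of at least 1.5 in either direction was seen in 4 of the 44 genes, or 9.09%, and in 24.6% of all genes tested. For 40 of the 41 genes that were not called, the 95% interval of the fold change lay inside 2-fold in either direction. The exception was FANCF. The summed level of the list was 1155, 1320 and 1361 CPM with triptolide and 1409, 1370 and 1262 CPM in untreated cells, so the groups overlapped.

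**Figure D1:**
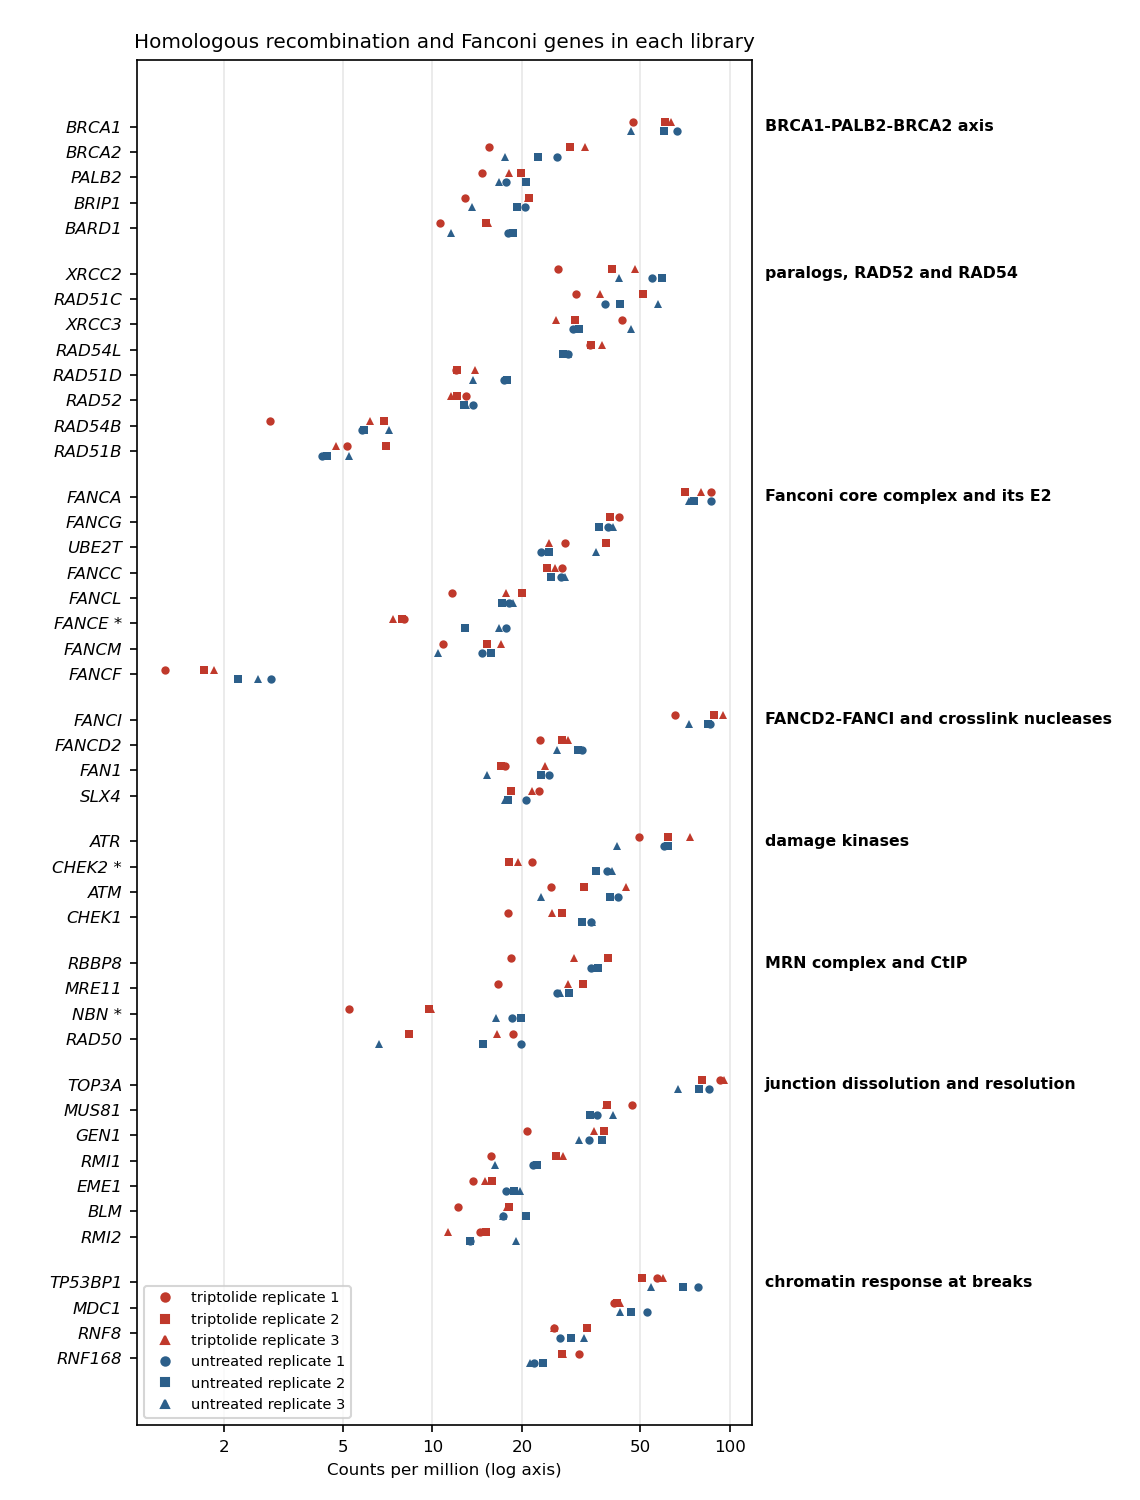
Level in CPM of each of the 44 genes in each library, on a log axis, by role. Red symbols are the 3 triptolide libraries and blue symbols the 3 untreated libraries, the symbol shape gives the replicate number, and a star marks the 3 genes that fell. The red and blue symbols lie apart for FANCE, CHEK2 and NBN, and overlap for most other genes.

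The Fanconi core complex held 1 of the 3 genes that fell. FANCE (ENSG00000112039) encodes the subunit that bridges the core complex to FANCD2. It lies on chromosome 6. The 250 bases upstream of its RefSeq start (GRCh38.p14, chr6:35452088-35452337, + strand) are shown because FANCE is one of the 3 genes that fell, and they hold no annotated exon sequence. Capitals mark each GC box, GGGCGG on either strand, of which there are 5.
FANCE: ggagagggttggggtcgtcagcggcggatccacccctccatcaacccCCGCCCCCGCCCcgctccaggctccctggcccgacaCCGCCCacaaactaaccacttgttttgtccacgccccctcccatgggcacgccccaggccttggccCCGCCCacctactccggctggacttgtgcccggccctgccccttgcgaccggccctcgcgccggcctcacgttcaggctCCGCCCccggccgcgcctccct
No E2F site (TTTCCCGC or TTTGGCGC), NF-Y box (CCAAT) or CHR element (TTTGAA or TTCGAA) was found there on either strand, and no 2 of the matches shared bases. These are matches of letters and not measured binding.

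FANCE had 8.0, 7.88 and 7.35 CPM with triptolide, against 17.7, 12.9 and 16.8 CPM in untreated cells. The counts behind them were 127, 180 and 184 with triptolide and 315, 233 and 305 without it. The triptolide libraries lay within a narrow band, and every one of them lay below every untreated library. The log2 fold change was -1.03 ± 0.19 (SE), with an edgeR adjusted p of 0.00368. FANCF, an adaptor subunit of the complex encoded by a gene with few reads here, had 1.26, 1.71 and 1.84 CPM with triptolide, against 2.86, 2.22 and 2.59 CPM without it. These groups did not overlap either, but FANCF did not pass (log2 fold change -0.65 ± 0.26, adjusted p = 0.103).

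The other core genes were close to level. FANCA, which with FANCG forms a subcomplex, had 86.2, 70.4 and 80.1 CPM with triptolide, against 86.0, 75.9 and 72.6 CPM in untreated cells. FANCG had 42.4, 39.4 and 39.7 CPM with triptolide and 38.9, 36.4 and 40.5 CPM without it. In both genes the groups overlapped, and the log2 fold changes were 0.01 ± 0.16 and 0.07 ± 0.15. FANCC, the partner of FANCE in the complex, stood at 25.8 ± 1.49 CPM with triptolide and 26.7 ± 1.49 CPM without it (SD, n = 3 libraries each). FANCL, the ubiquitin ligase, stood at 16.4 ± 4.35 CPM with triptolide and 17.9 ± 0.75 CPM without it, and FANCM, the translocase that anchors the complex on DNA, at 14.4 ± 3.19 CPM with triptolide and 13.6 ± 2.80 CPM without it. UBE2T, the ubiquitin-conjugating enzyme of the pathway, stood at 30.2 ± 7.14 CPM with triptolide and 27.7 ± 6.63 CPM in untreated cells. Adjusted p-values of these 6 genes ran from 0.733 for FANCL to 0.966 for FANCA.

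Downstream of the core complex no gene was called. FANCI had 65.2, 88.2 and 94.97 CPM with triptolide, against 85.5, 84.7 and 72.8 CPM without it. FANCD2, its partner in the clamp that is ubiquitinated at crosslinks, had 23.1, 27.2 and 28.6 CPM with triptolide and 31.7, 30.9 and 26.2 CPM without it. Both pairs of groups overlapped (adjusted p = 0.922 and 0.535). SLX4, the scaffold of structure-specific nucleases, stood at 20.9 ± 2.28 CPM with triptolide and 18.7 ± 1.64 CPM without it. The nuclease gene FAN1 stood at 19.5 ± 3.78 CPM with triptolide and 21.0 ± 5.06 CPM without it.

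Of the damage kinases, CHEK2 fell. CHEK2 (ENSG00000183765, chromosome 22) encodes the checkpoint kinase CHK2, which ATM activates at breaks. It had 21.5, 18.0 and 19.5 CPM with triptolide, against 38.6, 35.4 and 40.1 CPM in untreated cells, from 342 to 487 and from 638 to 728 counts. The 2 sets of libraries were far apart relative to their own spread, with a log2 fold change of -0.95 ± 0.16 and an adjusted p of 0.00256, the smallest of the 44. CHEK2 has pseudogene copies that can share reads. Those that the table lists had at most 0.20 CPM in any library. How reads matching several genes were counted is not given, so these low values cannot show whether shared reads affect CHEK2. It also shares exon bases with HSCB on the opposite strand, which stood at 5.38 ± 1.51 CPM with triptolide and 5.40 ± 1.05 CPM without it (adjusted p = 0.991).

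CHEK1, the kinase gene of the ATR branch, had 18.0, 27.3 and 25.2 CPM with triptolide, against 34.1, 31.9 and 34.5 CPM in untreated cells. Its groups did not overlap, but it did not pass (log2 fold change -0.51 ± 0.19, adjusted p = 0.0822). With an offset for the GC content of genes in each library it did, at -0.39 and an adjusted p of 0.0322. CHEK1 shares exon bases with STT3A on the same strand. ATM, the apical kinase for breaks, had 24.9, 32.3 and 44.7 CPM with triptolide, against 42.2, 39.4 and 23.2 CPM without it. ATR, the kinase for exposed single-stranded DNA, had 49.4, 61.8 and 73.4 CPM with triptolide and 59.9, 61.8 and 41.6 CPM without it. For both apical kinases the range within a group was wider than the difference between groups (log2 fold change -0.04 ± 0.26 for ATM and 0.18 ± 0.20 for ATR).

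In the MRN complex, NBN (ENSG00000104320, chromosome 8) fell. It encodes NBS1, the subunit that binds ATM. It had 5.23, 9.71 and 9.90 CPM with triptolide, against 18.6, 19.8 and 16.4 CPM in untreated cells, and triptolide replicate 1 was the lowest of the 6. The log2 fold change was -1.13 ± 0.24, with an adjusted p of 0.00753, and it was -0.88 without triptolide replicate 1. MRE11, the nuclease of the complex, had 16.6, 32.0 and 28.6 CPM with triptolide, against 26.2, 28.8 and 26.9 CPM without it. RBBP8, which encodes CtIP, had 18.3, 38.9 and 29.9 CPM with triptolide and 34.0, 35.9 and 35.4 CPM without it. In both genes triptolide replicate 1 lay below all the other libraries, and neither passed (adjusted p = 0.842 and 0.470). RAD50, the ATPase of the complex, was the most uneven gene of the list in untreated cells. It had 18.6, 8.31 and 16.5 CPM with triptolide, against 19.9, 14.8 and 6.61 CPM without it.

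**Figure D2:**
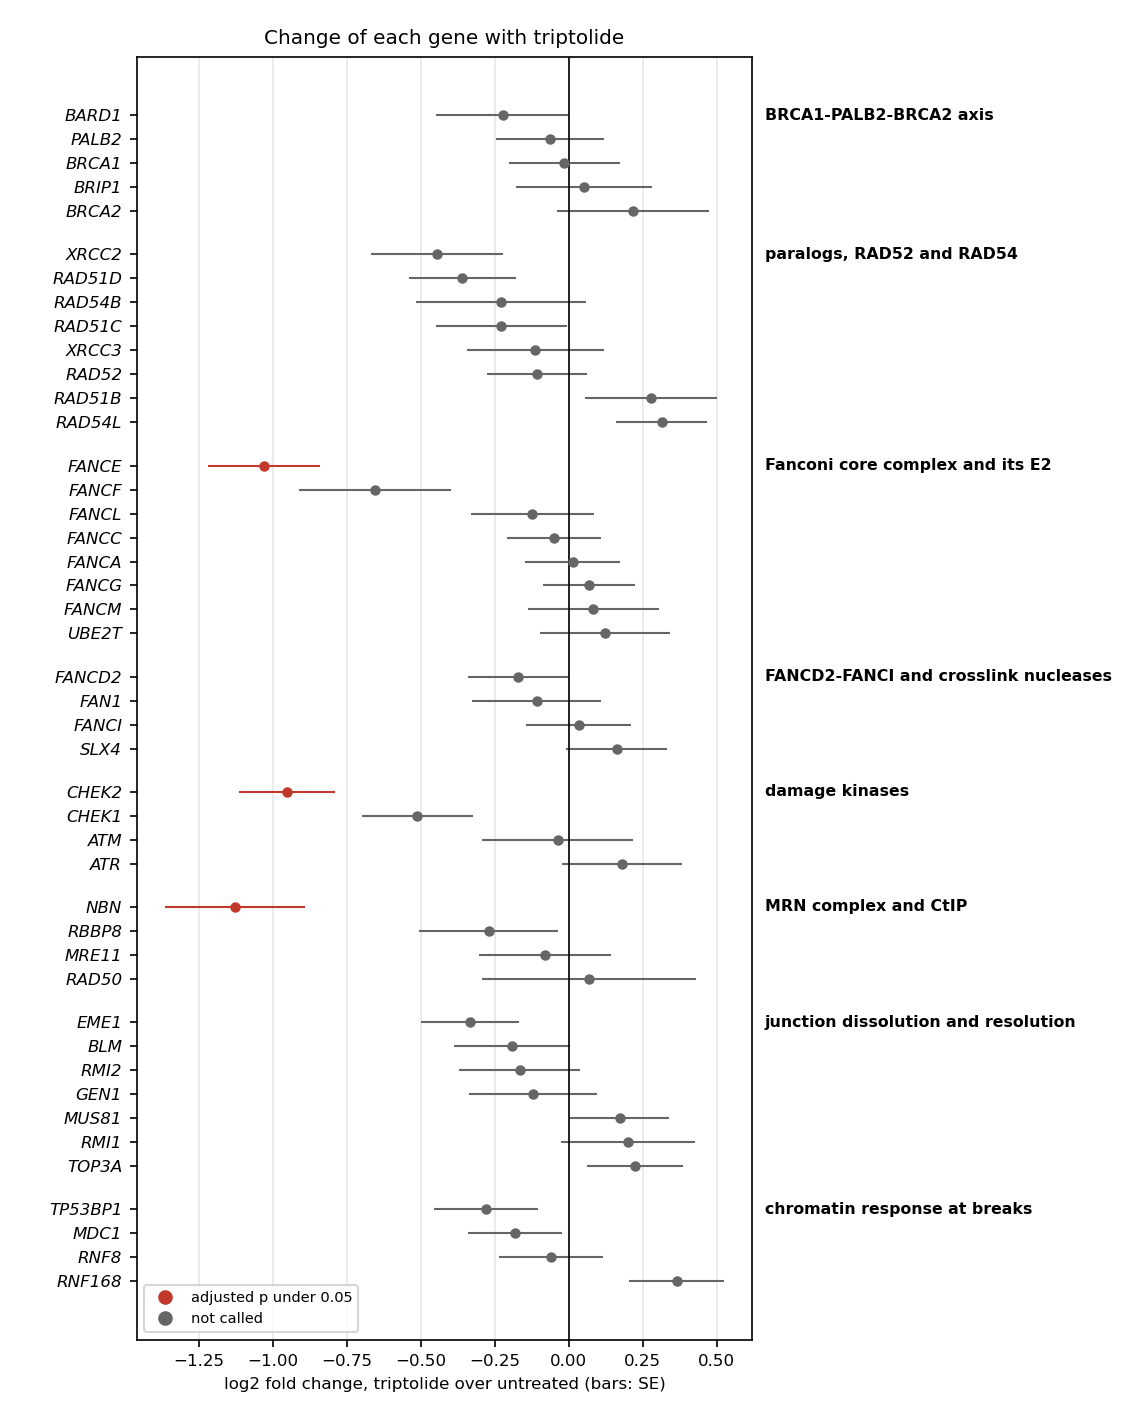
Log2 fold change of each of the 44 genes, triptolide over untreated, with its standard error, by role. Points left of 0 are lower with triptolide, and red points passed the test. FANCE, CHEK2 and NBN lie near -1, and the other genes lie between -0.65 and 0.37.

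The 5 genes of the BRCA1, PALB2 and BRCA2 axis gave no call. BRCA1, the ubiquitin ligase that acts early in recombination, had 47.1, 60.3 and 63.3 CPM with triptolide, against 66.4, 59.9 and 46.4 CPM in untreated cells. BRCA2, which acts at the exposed strand with PALB2, had 15.5, 28.9 and 32.6 CPM with triptolide and 26.3, 22.7 and 17.5 CPM without it. In both, triptolide replicate 1 and untreated replicate 3 were the lowest of their groups. The log2 fold changes were -0.02 ± 0.19 for BRCA1 and 0.22 ± 0.26 for BRCA2 (adjusted p = 0.967 and 0.610). BARD1, the partner of BRCA1, stood at 13.7 ± 2.65 CPM with triptolide and 16.0 ± 3.90 CPM without it, and PALB2, the bridge to BRCA2, at 17.5 ± 2.62 CPM with triptolide and 18.4 ± 2.04 CPM without it. The helicase gene BRIP1 stood at 18.3 ± 4.76 CPM with triptolide and 17.8 ± 3.71 CPM without it.

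Among the paralog, annealing and translocase genes of recombination 0 of 8 passed by edgeR, and 0 had an unadjusted p under 0.05. XRCC2, a subunit of one of the paralog complexes of recombination, had 26.4, 40.1 and 48.1 CPM with triptolide, against 54.5, 59.2 and 42.5 CPM without it. RAD51C, which takes part in both paralog complexes, had 30.4, 51.2 and 36.5 CPM with triptolide, against 38.1, 42.8 and 57.4 CPM without it. Both overlapped between groups (log2 fold change -0.44 ± 0.22 and -0.23 ± 0.22). RAD54L, a DNA translocase of recombination, was higher in every triptolide library, at 33.8, 34.0 and 37.1 CPM against 28.5, 27.4 and 28.5 CPM in untreated cells, and did not pass (log2 fold change 0.31 ± 0.16, adjusted p = 0.194). Its exons overlap those of LRRC41 on the other strand. The remaining 5, RAD51B, RAD51D, XRCC3, RAD52 and RAD54B, had log2 fold changes from -0.36 for RAD51D to 0.28 for RAD51B. RAD54B was the least even of them with triptolide, at 2.83, 6.87 and 6.15 CPM.

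For the enzymes that undo joined DNA molecules, 0 of 7 were called by edgeR, and 0 had an unadjusted p under 0.05. TOP3A, the topoisomerase of the dissolution complex, had the highest mean CPM of the 44 with triptolide, with 92.5, 80.6 and 95.8 CPM, against 84.8, 78.5 and 66.9 CPM without it. MUS81, a nuclease that cuts joint molecules, had 46.9, 38.6 and 38.3 CPM with triptolide and 35.7, 33.9 and 40.4 CPM without it. Both overlapped between groups, and MUS81 shares exon bases with CFL1 and EFEMP2. EME1, its partner, was lower in every triptolide library, at 13.7, 15.8 and 15.1 CPM against 17.7, 18.8 and 19.7 CPM in untreated cells. It did not pass (log2 fold change -0.33 ± 0.17, adjusted p = 0.196, and 0.038 with the GC offset). EME1 shares exon bases with LRRC59 on the opposite strand. The helicase gene BLM, RMI1 and RMI2 of the same complex as TOP3A, and the resolvase gene GEN1 had log2 fold changes from -0.19 for BLM to 0.20 for RMI1. With the GC offset RMI1 passed, at 0.42 and an adjusted p of 0.0304.

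Of the chromatin factors at breaks, TP53BP1, which protects ends from trimming, had 56.7, 50.5 and 59.3 CPM with triptolide, against 78.2, 69.4 and 54.5 CPM in untreated cells. MDC1, the reader of phosphorylated H2AX, had 40.8, 41.7 and 42.9 CPM with triptolide and 52.8, 46.7 and 42.9 CPM without it. Neither passed (adjusted p = 0.311 and 0.473). The ubiquitin ligase gene RNF8 stood at 28.2 ± 4.32 CPM with triptolide and 29.4 ± 2.74 CPM without it. RNF168, the ligase that acts after RNF8, had 31.2, 27.4 and 27.6 CPM with triptolide, against 21.9, 23.6 and 21.3 CPM in untreated cells. RNF168 had the largest positive log2 fold change of the list, 0.37 ± 0.16, with no overlap of the groups, and did not pass (adjusted p = 0.145, and 0.044 with the GC offset). The GC offset thus called 5 fallen and 2 risen of the 44, where 12.5% of all genes tested fell and 13.8% rose with that offset.

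The spread within groups followed the GC content of the genes in most libraries. It did so least in untreated replicate 1, whose log2 difference from its group had a Spearman correlation of -0.14 with GC content over the 44 genes. Triptolide replicate 1 was the lowest of its group in 26 of the 44 genes (59.1%), whose median GC content was 40.6%. Untreated replicate 3 was the lowest of its group in 23 genes (52.3%). Over all genes tested these shares were 41.6% and 40.1%. Across the 44 genes, the log2 difference of triptolide replicate 1 from the other 2 triptolide libraries had a Spearman correlation of 0.84 with GC content, and that of untreated replicate 3 from its group one of 0.43. Over 15077 genes these were 0.77 and 0.29. They describe single libraries across genes that share a library and its depth, and genes are not independent replicates. For the 16 genes below 42% GC, the median difference was -0.71 in triptolide replicate 1 and -0.43 in untreated replicate 3, and for the 12 genes at or above 50% GC it was 0.11 and -0.003. RAD50, at 40.1% GC, went the other way in triptolide replicate 1, at 0.64, but not in untreated replicate 3, at -1.31. The log2 fold change itself had a correlation of 0.02 with GC content over the 44 genes and of 0.24 over the 15077 genes. FANCE, CHEK2 and NBN had GC contents of 58.4%, 45.6% and 37.3%. Their log2 differences in triptolide replicate 1 were 0.07, 0.20 and -0.85. The part of GC content in the fall of these 3 genes was not tested.

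**Figure D3:**
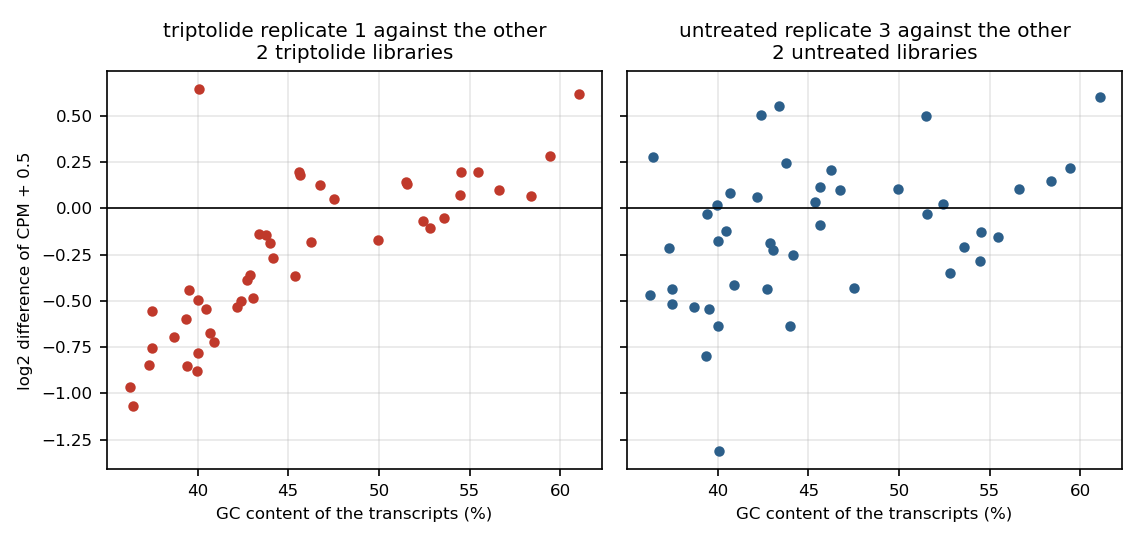
Log2 difference of each gene in one library from the mean of the other 2 libraries of its group (CPM plus 0.5), against the GC content of its transcripts, for triptolide replicate 1 on the left and untreated replicate 3 on the right. Each point is 1 of the 44 genes. Points below 42% GC have a median of -0.71 on the left and -0.43 on the right.

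Per kilobase of exon, UBE2T had the highest level of the list, at 18.3 CPM per kb with triptolide and 16.8 CPM per kb in untreated cells, followed with triptolide by TOP3A (13.8), FANCG (11.2), RAD54L (10.9) and FANCI (10.7). The lowest were FANCF (0.54 with triptolide and 0.87 without), RAD51B (0.75 and 0.62) and RAD54B (0.99 and 1.18). The list spanned 1.60 to 89.6 CPM with triptolide and 2.56 to 81.0 CPM without it, as group means. Of the 44 promoters (RefSeq, 250 bases before to 50 after the start, GRCh38.p14), 40 were matched. An E2F site was in 3 of them (XRCC2, FANCC and FANCD2), or 7.50% of the matched members, against 3.69% of the promoters of all tested genes. A GC box was in 72.5% against 70.5%, an NF-Y box in 45.0% against 36.7%, and a CHR element in 12.5% against 11.0%. None of the 3 genes with an E2F site was called, but 41 of all 44 genes were not, so this carries no information on such sites.

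The calls of FANCE, CHEK2 and NBN were kept in each fit without 1 library, with adjusted p-values up to 0.0197, 0.0144 and 0.0276. They were lost when libraries were scaled on ribosomal protein genes, where the median of all genes moved to 0.17 on the log2 scale. The 3 genes then had log2 fold changes of -0.85, -0.77 and -0.95, with adjusted p-values of 0.0808, 0.099 and 0.114. Each change is measured against the rest of the same library, and a shift in the mRNA content of the cells is not visible in such data.

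**Figure D4:**
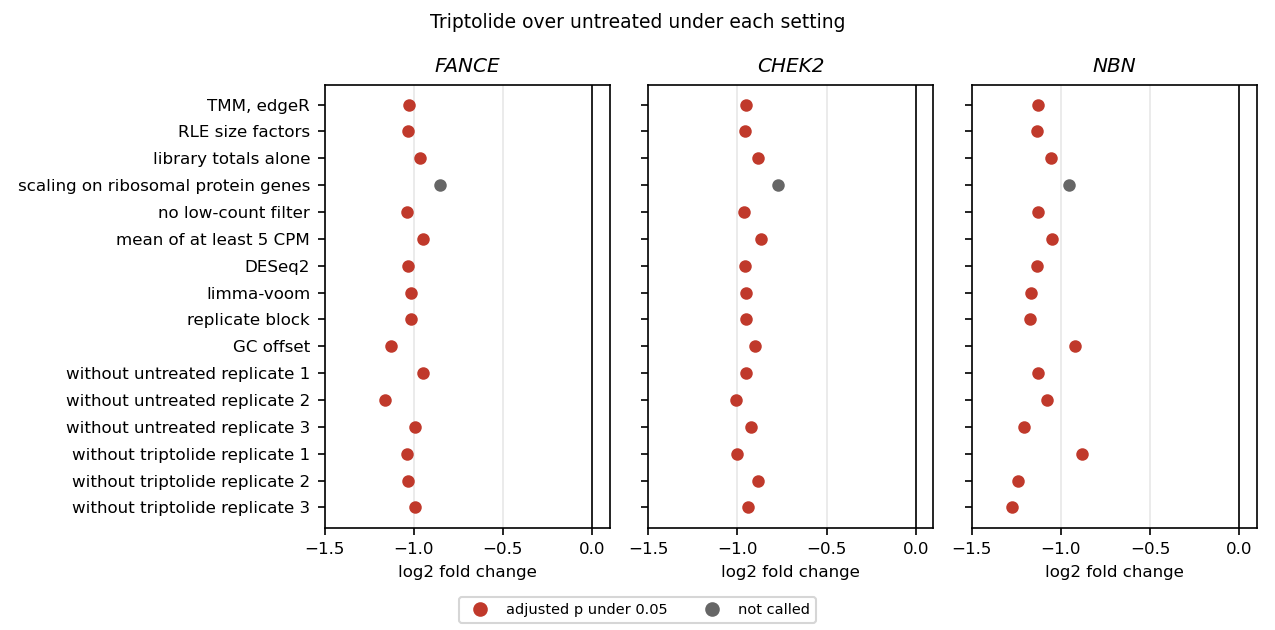
Log2 fold change of FANCE, CHEK2 and NBN, triptolide over untreated, under each way of processing the counts. Red points passed at an adjusted p under 0.05 and grey points did not. All points lie between -1.28 and -0.77, and the grey points are those with scaling on ribosomal protein genes.

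Related genes outside the list were also mostly not called. Of 138 tested genes on 6 related lists, 5 rose and 8 fell, which is 3.62% and 5.80%. Over all genes tested 10.0% rose and 5.82% fell, and these shares are the background for each list below. Among 42 tested genes of homologous recombination and Fanconi repair that are not on the list of 44, 2 rose (4.76%) and 1 fell (2.38%). The nuclease and helicase gene DNA2, which lengthens the trimming of ends, fell to 13.4 ± 2.48 CPM with triptolide, against 26.5 ± 4.16 CPM without it (adjusted p = 0.00627). EME2, another partner of MUS81, rose to 17.5 ± 4.25 CPM with triptolide, against 9.66 ± 1.37 CPM, and the helicase gene RTEL1 rose to 10.1 ± 2.56 CPM, against 5.50 ± 1.21 CPM. EME2 lost its call without untreated replicate 2 (adjusted p = 0.099), and RTEL1 lost its call without triptolide replicate 1 (adjusted p = 0.072), triptolide replicate 3 (0.0666), untreated replicate 2 (0.124) or untreated replicate 3 (0.0867). EME2 shares exon bases with SPSB3 and RTEL1 with a readthrough gene.

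Of 28 checkpoint and break-response partners, 1 rose (3.57%) and 2 fell (7.14%), where 10.0% of all genes tested rose and 5.82% fell. RAD9A, a subunit of the clamp that helps ATR signalling, rose to 28.8 ± 5.99 CPM with triptolide, against 13.3 ± 2.07 CPM in untreated cells (log2 fold change 1.11 ± 0.20, adjusted p = 0.0033). Its exons overlap those of PPP1CA on the other strand. TIMELESS, which protects replication forks, fell to 41.6 ± 1.80 CPM with triptolide, against 66.9 ± 6.64 CPM, and lost its call without untreated replicates 1 or 2 (adjusted p = 0.0691 and 0.0622). SHLD2, a subunit of the shieldin complex that acts after 53BP1, fell to 20.1 ± 7.56 CPM with triptolide, against 37.5 ± 2.90 CPM. It lost its call without triptolide replicate 3 (adjusted p = 0.0514), untreated replicate 2 (0.0806) or untreated replicate 3 (0.0692). SHLD2 shares exon bases with GLUD1 on the other strand.

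Of 13 genes of non-homologous end joining, the ligation pathway that needs no copy, 1 rose (7.69%) and 3 fell (23.1%). Over all genes tested 10.0% rose and 5.82% fell, and in so short a list each call is a large share. XRCC4, the partner of DNA ligase IV, fell to 15.1 ± 6.60 CPM with triptolide, against 34.6 ± 6.98 CPM in untreated cells (log2 fold change -1.19 ± 0.28, adjusted p = 0.0131). APLF rose to 3.66 ± 0.48 CPM with triptolide, against 1.74 ± 0.36 CPM without it. APTX and PAXX fell, and their calls depended on single libraries. APTX shares exon bases with LAGE3P1 and TCEA1P4 on the same strand. APTX had an adjusted p of 0.0684, 0.109 and 0.0758 without untreated replicates 1, 2 or 3 and 0.129 without triptolide replicate 3, and PAXX one of 0.134 without untreated replicate 3 and 0.0727 and 0.150 without triptolide replicates 2 or 3.

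CDK12, a kinase of the RNA polymerase II tail known for keeping long repair genes transcribed, had 111, 111 and 133 CPM with triptolide, against 157, 144 and 92.9 CPM without it. CDK13, its close relative, stood at 62.8 ± 2.41 CPM with triptolide and 56.8 ± 10.2 CPM without it, and neither they nor their cyclin passed. Of 28 S phase genes, 1 rose (POLE) and 1 fell (GINS1), or 3.57% each, where 10.0% of all genes tested rose and 5.82% fell. POLE had an adjusted p of 0.116 and 0.0979 without untreated replicates 2 or 3 and 0.080 and 0.0946 without triptolide replicates 1 or 3, and GINS1 one of 0.0866 and 0.0995 without untreated replicates 1 or 2. The S phase list had summed levels of 5021 to 5925 CPM with triptolide and 5236 to 5385 CPM without it, which overlapped. Of 24 genes of the G2 and M phases, 0 rose and 1 fell (4.17%). The 1 that fell was CCNB1, the mitotic cyclin, at 327 ± 39.3 CPM with triptolide, against 530 ± 50.2 CPM in untreated cells (adjusted p = 0.0131). Without untreated replicate 2 and without triptolide replicate 3 CCNB1 had an adjusted p of 0.0549 and 0.0617. The summed level of the G2 and M phase list was 4268, 5306 and 4838 CPM with triptolide, against 5470, 5461 and 5319 CPM in untreated cells, with no overlap. Of these 24 genes 18 had a negative log2 fold change, where 7653 of all 15202 genes tested did so. At an unadjusted p under 0.05, 6 were lower, where 13.8% of all genes tested were lower. The median log2 fold change was -0.23. The 28 checkpoint and break-response partners had like values, with 20 negative, 10 lower at an unadjusted p under 0.05 and a median of -0.23. The part of cell cycle phase in the changes of the repair genes was not tested.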

How the data were processed

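The deposited table holds whole-number read counts per Ensembl gene for 6 libraries, with different totals and no sign of scaling. Per the submitters' processing notes, the tools were HISAT2 and featureCounts, with no versions. Not given in the sources used here are the genome build, the annotation, the strand setting and how reads matching several genes were counted. Without the strand setting, reads of overlapping genes on opposite strands cannot be told apart, and 24 of the 44 genes share exon bases with another counted gene. Gene names were matched for 35639 of 35716 IDs. GC content, exon length (union of exons) and neighbours came from GENCODE 29.

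Genes were kept by edgeR's filterByExpr, normalized with TMM factors and compared in R 4.3.3 by the quasi-likelihood test of edgeR 4.0.16, triptolide against untreated, with Benjamini-Hochberg adjustment over all 15202 genes tested. Adjusted p-values in the text are from this fit unless another is named. Standard errors were taken from the log2 fold change and its F statistic. CPM use TMM-scaled library sizes, and ± is the SD over 3 libraries. The fit was run on simulated counts, drawn independently for each gene and library with no trend with GC content. That simulation cannot show how the fit behaves under the GC trends seen here. Alternatives used RLE size factors, library totals, scaling on 81 ribosomal protein genes, other filters, DESeq2 1.42.0, limma-voom (limma 3.58.1), a replicate block, a GC offset and each library left out. The genes with values per library were those called and the 2 most abundant of each role, by rule. Genes whose groups did not overlap, and RAD50 and RAD54B for their spread within groups, were added after their values were seen. From related lists, up to 3 called genes per direction were named. The members and lists were chosen with earlier results of these data known. Figures used matplotlib 3.10.9. 1 gene of the related lists is not reported here.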

Additional observations from a re-analysis of the deposited data

How the results depend on the processing

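Over all 15202 genes tested, 1527 rose and 884 fell, so that 63.3% of calls were higher with triptolide, against 73.8% with library totals alone, 90.0% with scaling on ribosomal protein genes and 52.6% with the GC offset. Of the 44 repair genes, 3 fell and 0 rose, and in fits without 1 library the counts were again 3 and 0. Scaling on ribosomal protein genes gave 0 fallen, and the GC offset 5 fallen (with CHEK1 and EME1) and 2 risen (RMI1 and RNF168). With RLE size factors, library totals, either other filter, DESeq2, limma-voom and the replicate block the counts were 3 and 0. Over 659 values of single genes under these settings, 66 lay on the other side of 0 from the value reported, none of them called. FANCF was not tested where genes under 5 CPM on average were removed.

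The related lists were less stable. Their risen genes numbered 5, with 3 under ribosomal protein scaling, 15 with the GC offset and 2 to 7 with 1 library left out. Their fallen genes numbered 8, with 4 with library totals, 0 with ribosomal protein scaling, 13 without a low-count filter, 4 when genes averaging under 5 CPM were removed, 13 with DESeq2, 25 with the GC offset and 3 to 14 with 1 library left out. The cause was not tested. Deviations of same-numbered libraries from their groups had correlations of 0.03, -0.04 and -0.44, and no triptolide library matched its own number best. Such deviations also followed GC content, so these correlations cannot show whether same-numbered samples were paired. The replicate block gave 12 fallen related genes and 5 risen, and APTX had an adjusted p of 0.0683. Counts per gene limit what can be seen for the least abundant members, such as FANCF and RAD51B.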

Other observations

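Some of the repair genes share a start region with a gene on the other strand. In GENCODE 29, 14 of the 44 genes had a tested protein-coding neighbour on the opposite strand whose annotated start lay within 1000 bases. The share of all genes with such a neighbour was not counted. Of these 14 neighbours, 2 rose and 1 fell by edgeR, where 10.0% of all genes tested rose and 5.82% fell. With so few neighbours, these counts are near the background. TEX14, the neighbour of RAD51C and a gene known from the germ line, had 3.59, 3.81 and 3.91 CPM with triptolide, against 0.22, 0.39 and 0.17 CPM in untreated cells, a log2 fold change of 3.83 ± 0.33 (adjusted p = 3.33e-05). TEX14 passed the low-count filter only through the triptolide libraries, so its direction was fixed in advance. RAD51C itself was not called. DNASE1, the neighbour of SLX4, rose to 29.2 ± 5.01 CPM with triptolide, against 12.4 ± 0.92 CPM, and MRPL27, whose start lies 6 bases from that of EME1, fell to 20.6 ± 1.57 CPM, against 34.3 ± 7.97 CPM (adjusted p = 0.00105 and 0.0237). HSCB, the neighbour of CHEK2, was not called. FANCE and NBN had no such neighbour among the tested genes.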
